A study of Rattus norvegicus with 16 samples.

Results

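The spontaneously hypertensive rat (SHR) is bred from Wistar-Kyoto stock for a blood pressure that rises with age, while Wistar-Kyoto rats (WKY) serve as its normotensive controls. RNA of their mesenteric arteries was measured on arrays to ask which genes the strains express at different levels before and after that rise. Described here are the 26 of 30367 array probes that kept every SHR pool apart from every WKY pool. They were chosen by their values: the lowest SHR pool had to lie above the highest WKY pool by a log2 ratio of 0.5 or more, or the reverse. The strain difference is therefore a description in all that follows and carries no test. Of the 26 probes, 11 were higher in SHR and 15 were lower in SHR. They carried 16 gene symbols, since Tlr3 was met by 2 probes, and 9 probes had no symbol. A further 9 probes met the margin and were left out by name, namely histocompatibility genes (RT1-), an alpha globin gene, Thbs4, Enpp1 and Ano1.

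All animals were male. WKY came as the sublines WKY/NCrL, WKY/NTac and WKY/NHsd, and SHR as SHR/NCrL, SHR/NHsd and the stroke-prone SHR/SP, each at 6 weeks and at 5 months of age. Vessels of several animals of 1 subline and age were pooled before RNA was isolated, with adventitia and endothelium left on the vessel, so animal-to-animal spread was not measured and each pool is also the only one of its subline and age. The pools that passed quality control were 3 of WKY at 6 weeks, 2 of WKY at 5 months, 3 of SHR at 6 weeks and 2 of SHR at 5 months, and 4 of the SHR pools were put on a second array. The 5-month pools of WKY/NHsd and of SHR/NHsd failed quality control and were not used to choose the probes. Each value is the log2 ratio of a pool (Cy3) over 1 common reference (Cy5) that the study mixed from all test samples, so 0 is the level of the mixture. With no dye swap, a dye effect of a probe shifts all its pools alike. Errors are standard deviations over pools of a strain (n = 5).

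Between 65.4% and 71.9% of spots on the 14 passing arrays had a test signal well above background. All 8 smooth muscle markers measured, such as Acta2 and Myh11, were well above background on every one of these arrays. Of 47 markers of 10 cell types, limma called none between strains at either age, with 9 at an unadjusted p under 0.05 at 6 weeks and 6 at 5 months, where 7.96% and 7.90% of all probes had one. The 5 adipocyte markers measured held 3 of the 9 at 6 weeks, with a median difference of 0.92 then and of -0.62 at 5 months. The 2 mesothelium markers measured, neither well above background on all arrays, were also among the 9, with a median of 0.48. The 7 endothelium markers held 3 of the 6 at 5 months, with a median of -0.47 then and of -0.04 at 6 weeks. The part of these cell types in the members' values was not tested. For all 10 marker lists the mean level of the SHR pools overlapped that of the WKY pools. In RNA of whole vessels, fewer cells of a type and less RNA per cell cannot be told apart.

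The genes in this set do not belong to 1 pathway. Among those higher in SHR, Tlr3 is an endosomal receptor that recognises double-stranded RNA and starts an interferon response, and Pcmtd1 is related to the enzyme that repairs isoaspartyl residues in ageing proteins. Among those lower in SHR, Slitrk5 is a transmembrane leucine-rich repeat protein known from neurons, where it shapes neurites and synapses, and Reep1 is a protein that curves the membrane of the endoplasmic reticulum. Several others work in mitochondria or in the sorting of membranes.

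**Figure D1:**
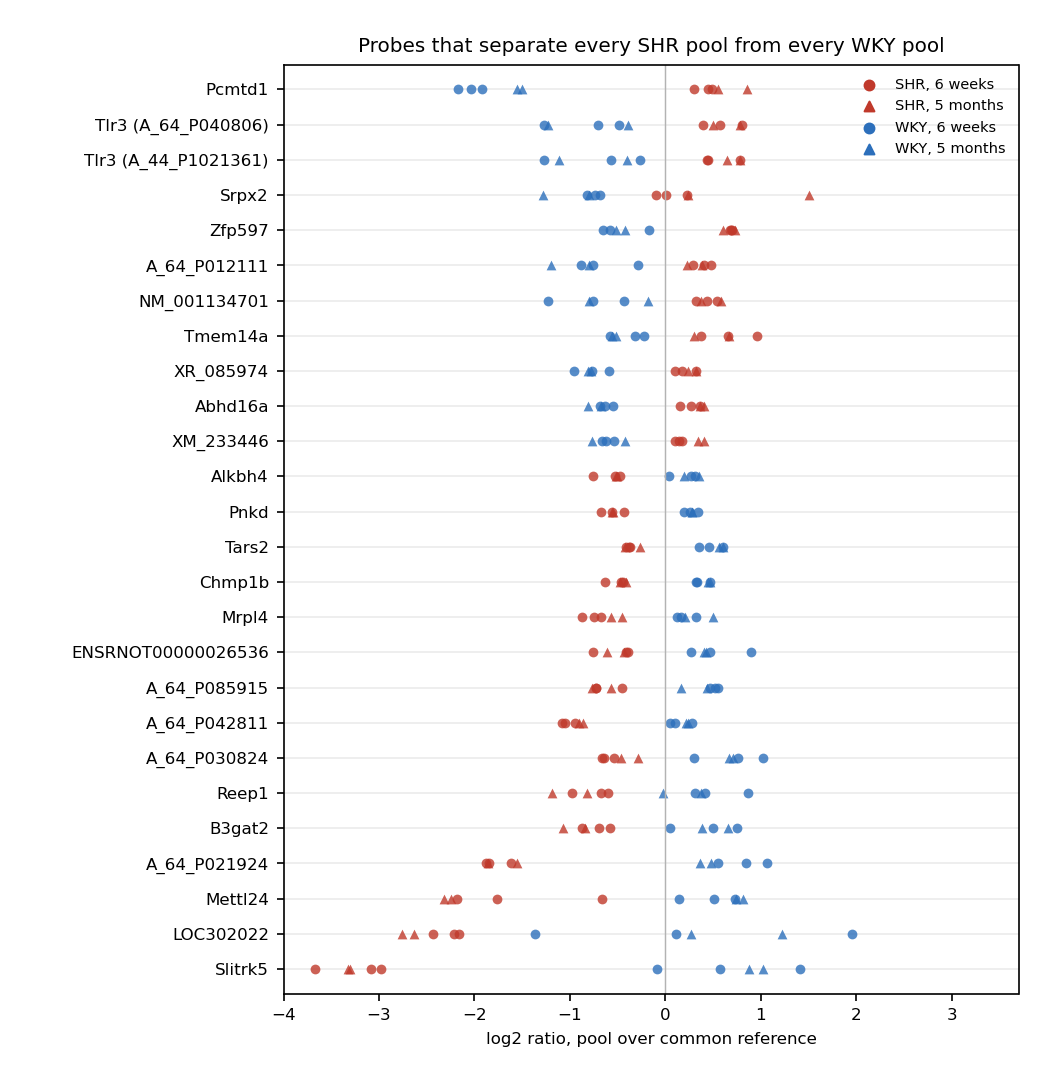
The log2 ratio over the common reference (horizontal axis) is plotted for each pool that passed quality control and each of the 26 probes (vertical axis, ordered by SHR minus WKY). Red marks stand for SHR and blue marks for WKY, circles for 6 weeks and triangles for 5 months. No row has a red mark among the blue ones, because the probes were chosen for this, and the widest empty space, 2.90, is that of Slitrk5.

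Slitrk5 had the widest separation. The WKY pools stood at -0.08 (WKY/NCrL), 0.57 (WKY/NHsd) and 1.41 (WKY/NTac) at 6 weeks and at 0.88 (WKY/NCrL) and 1.03 (WKY/NTac) at 5 months. The SHR pools stood at -3.67 (SHR/NCrL), -2.98 (SHR/NHsd) and -3.08 (SHR/SP) at 6 weeks and at -3.32 (SHR/NCrL) and -3.31 (SHR/SP) at 5 months. Thus every SHR pool was far below the reference mixture, with a gap of 2.90 to the nearest WKY pool, and the difference of strain means was -4.03. The probe was well above background on all 5 WKY arrays but on 4 of 9 SHR arrays, all of them at 6 weeks. No SHR array at 5 months had it well above background, so only a bound can be given there. Such a bound takes the Cy3 signal, setting each dim array to the higher of the probe's own signal and the lowest signal among probes well above background. For Slitrk5 it came to 23.7-fold, while the ratios over the reference differed by 19.2-fold, so that WKY is given here as at least 19.2-fold higher.

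Mettl24, a putative methyltransferase, showed the same layout with 1 pool standing nearer. Its WKY pools read 0.51 (WKY/NCrL), 0.15 (WKY/NHsd) and 0.73 (WKY/NTac) at 6 weeks and 0.81 (WKY/NCrL) and 0.75 (WKY/NTac) at 5 months. Its SHR pools read -2.18 (SHR/NCrL), -0.67 (SHR/NHsd) and -1.76 (SHR/SP) at 6 weeks and -2.32 (SHR/NCrL) and -2.25 (SHR/SP) at 5 months. SHR/NHsd was thus the SHR pool closest to WKY, and the gap of 0.81 was much narrower than the difference of means of -2.42. The probe was well above background on 2 of 9 SHR arrays, both at 6 weeks. At 5 months WKY was at least 6.06-fold higher by the Cy3 signal. B3gat2, which makes a glucuronic acid linkage of the HNK-1 carbohydrate, was also dim in SHR, with 1 of 9 arrays above background. Its pools ranged from -1.07 to -0.57 in SHR and from 0.05 to 0.75 in WKY, and at 5 months WKY was at least 2.60-fold higher.

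LOC302022 differed as much between WKY sublines as many members did between strains. The study's name is used for this probe, and the RefSeq table lists the gene as a pseudogene of Nid2, the basement membrane protein nidogen 2. The gene has similar copies, so that the transcript behind the probe is uncertain. WKY pools read 1.96 (WKY/NCrL), -1.37 (WKY/NHsd) and 0.11 (WKY/NTac) at 6 weeks and 1.22 (WKY/NCrL) and 0.27 (WKY/NTac) at 5 months. SHR pools lay between -2.76 and -2.16, all below WKY/NHsd, with a gap of 0.80. The SD was 1.26 in WKY and 0.26 in SHR. Nid2 itself, measured by its own probe, was 0.62 higher in SHR on average with overlapping pools.

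By its member probe, Pcmtd1 had the widest gap of the genes higher in SHR. Its WKY pools read -2.18 (WKY/NCrL), -1.92 (WKY/NHsd) and -2.04 (WKY/NTac) at 6 weeks and -1.50 (WKY/NCrL) and -1.56 (WKY/NTac) at 5 months. Its SHR pools read 0.45 (SHR/NCrL), 0.30 (SHR/NHsd) and 0.49 (SHR/SP) at 6 weeks and 0.86 (SHR/NCrL) and 0.56 (SHR/SP) at 5 months. All SHR pools were above and all WKY pools below the reference mixture, with means of 0.53 ± 0.21 and -1.84 ± 0.30 (SD, n = 5 each). The difference was 2.37, or 5.16-fold, and the probe was well above background on every array. A second Pcmtd1 probe, described below, was lower in SHR. The study's RT-PCR in WKY/NTac and SHR/SP at 5 months also gave less Pcmtd1 in SHR, a difference not marked as significant. For Slitrk5, Mettl24 and LOC302022 that RT-PCR, done on arteries of the same animals, pointed the same way as the array. The difference was marked as significant for Slitrk5 and Mettl24 but not for LOC302022.

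Tlr3 was represented by a pair of probes, both in the set. The first, A_64_P040806, read -1.27, -0.71 and -0.48 in WKY/NCrL, WKY/NHsd and WKY/NTac at 6 weeks and -1.23 and -0.40 in WKY/NCrL and WKY/NTac at 5 months. In SHR/NCrL, SHR/NHsd and SHR/SP at 6 weeks it read 0.39, 0.80 and 0.58, and in SHR/NCrL and SHR/SP at 5 months 0.50 and 0.78. The strain means differed by 1.43, and by 1.35 on the other probe, A_44_P1021361. Both probes put WKY/NCrL lowest at both ages, below WKY/NTac by 0.81 and 0.86 on average.

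Srpx2, a secreted sushi-repeat protein encoded on chromosome X, was higher in SHR with 1 pool far above the rest. SHR pools read 0.01 (SHR/NCrL), 0.23 (SHR/NHsd) and -0.09 (SHR/SP) at 6 weeks, then 0.23 (SHR/NCrL) and 1.51 (SHR/SP) at 5 months. WKY pools lay between -1.28 and -0.69. The gap of 0.60 does not rest on the high pool, since the SHR pool next to WKY was SHR/SP at 6 weeks. Zfp597, a zinc finger protein, was among the least variable in SHR, at 0.68 ± 0.05 against -0.47 ± 0.19 in WKY. Abhd16a, a phosphatidylserine lipase, stood at 0.31 ± 0.10 in SHR and -0.67 ± 0.10 in WKY. Tmem14a, a small membrane protein, stood at 0.59 ± 0.26 in SHR and -0.44 ± 0.16 in WKY.

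The remaining named genes lower in SHR had smaller and more even differences. Reep1 stood at -0.85 ± 0.23 in SHR and 0.39 ± 0.32 in WKY. Mrpl4, a protein of the large mitochondrial ribosomal subunit, stood at -0.66 ± 0.16 and 0.26 ± 0.15. Tars2, the enzyme that charges mitochondrial threonine tRNA, stood at -0.37 ± 0.06 and 0.52 ± 0.11. In these genes no SHR pool reached the reference mixture. Chmp1b, a subunit of the ESCRT-III complex that remodels membranes, stood at -0.48 ± 0.08 and 0.41 ± 0.07. Pnkd, named after an inherited movement disorder, stood at -0.55 ± 0.09 and 0.27 ± 0.05. Alkbh4, a dioxygenase of the AlkB family, had the smallest difference of means of all members, -0.79, with pools from -0.76 to -0.47 in SHR and from 0.04 to 0.36 in WKY.

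Of the 9 probes with no symbol, 4 were higher in SHR, by 0.84 to 1.14, and 5 were lower, with differences from -2.41 to -1.02. The largest of them, A_64_P021924, was picked out here after its values were seen. It read between -1.88 and -1.55 in SHR and between 0.36 and 1.06 in WKY, with a gap of 1.92, the second widest after Slitrk5. It was well above background on 2 of 9 SHR arrays, none at 5 months, where WKY was at least 4.10-fold higher. The probe for ENSRNOT00000026536 was not well above background on any of 9 SHR arrays, and WKY was at least 2.00-fold higher. A_64_P012111 was not well above background on any of 5 WKY arrays, and SHR was at least 1.55-fold higher. Among the other unnamed members higher in SHR, NM_001134701 stood at 0.45 ± 0.11 in SHR and -0.68 ± 0.40 in WKY, XR_085974 at 0.23 ± 0.09 in SHR and -0.78 ± 0.13 in WKY and XM_233446 at 0.23 ± 0.13 in SHR and -0.61 ± 0.13 in WKY. Among those lower in SHR, A_64_P042811 stood at -0.97 ± 0.10 in SHR and 0.18 ± 0.10 in WKY, A_64_P030824 at -0.52 ± 0.15 in SHR and 0.70 ± 0.26 in WKY and A_64_P085915 at -0.65 ± 0.13 in SHR and 0.43 ± 0.15 in WKY. XR_085974, an accession for a non-coding transcript, also differed on the arrays that failed quality control, by 1.29. Except for ENSRNOT00000026536 and A_64_P012111, all members were well above background on some arrays of either strain, and 18 of the 26 were so on all 14.

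The margin was met by 0.056% of all probes with SHR higher and by 0.0593% with SHR lower, before probes were left out by name. The members just inside it were NM_001134701 with a gap of 0.50, Alkbh4 with 0.51 and A_64_P012111 with 0.51. Just outside were TC592821 with 0.49 (lower in SHR), Cfap141 with 0.49 and Pxmp4 with 0.49 (both higher). The edge of the set is thus set by differences of about 0.01, well under the spread between pools. A total of 683 probes separated the strains by some margin.

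The strains stayed apart without averaging of technical replicates. Taken array by array, all 26 members kept every SHR array on its side of every WKY array, and 20 did so by 0.5 or more. Only 4 pools, all of SHR, had a second array, so the values of the other pools are those that chose the probes. There were 2 slides, which are also the scan sessions, and both carried both strains (3 SHR and 3 WKY passing arrays on slide 1, 6 and 2 on slide 2). Since all arrays were apart, the members are also apart within each slide by construction. For 24 of the 26, the gap between strains was wider than the largest difference between repeat arrays of a pool. Since every member had to have a gap of 0.5 or more, this count was largely set by the choice of probes.

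The 2 arrays that failed quality control give values that the choice of probes did not use. Of the members higher in SHR, 9 of 11 were also higher in SHR/NHsd than in WKY/NHsd on these arrays, against 52.4% of all probes. Of the members lower in SHR, 12 of 15 were lower, against 47.6% of all probes. By 0.5 or more, 7 of 11 were higher and 8 of 15 lower, against 8.53% and 8.8% of all probes. With 1 array per strain there is no test, and these arrays are also the only NHsd pools at 5 months. Pcmtd1 differed by 2.18 on them (1.19 in SHR/NHsd and -0.99 in WKY/NHsd), the Tlr3 probes by 1.28 and 0.83, Srpx2 by 0.95 and A_64_P021924 by -2.30.

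The 3 named genes with the largest deficit in SHR read no lower in SHR/NHsd than in WKY/NHsd on the failed arrays. Slitrk5 read 0.18 in SHR/NHsd and 0.07 in WKY/NHsd, although SHR/NHsd had read -2.98 at 6 weeks, and it was well above background on both. Mettl24 read -0.07 and -0.27, and LOC302022 -1.16 and -1.21. Zfp597 and Tmem14a turned the other way, at -0.22 and -0.20. Of the 26 members, 16 had SHR/NHsd on the SHR side of the middle of the gap and 18 had WKY/NHsd on the WKY side. The failed arrays were dimmer, with median test intensities of 105 and 116.5 units against 149.5 to 204, and 56.5% and 60.4% of spots above background. The part of this in the values was not tested.

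**Figure D2:**
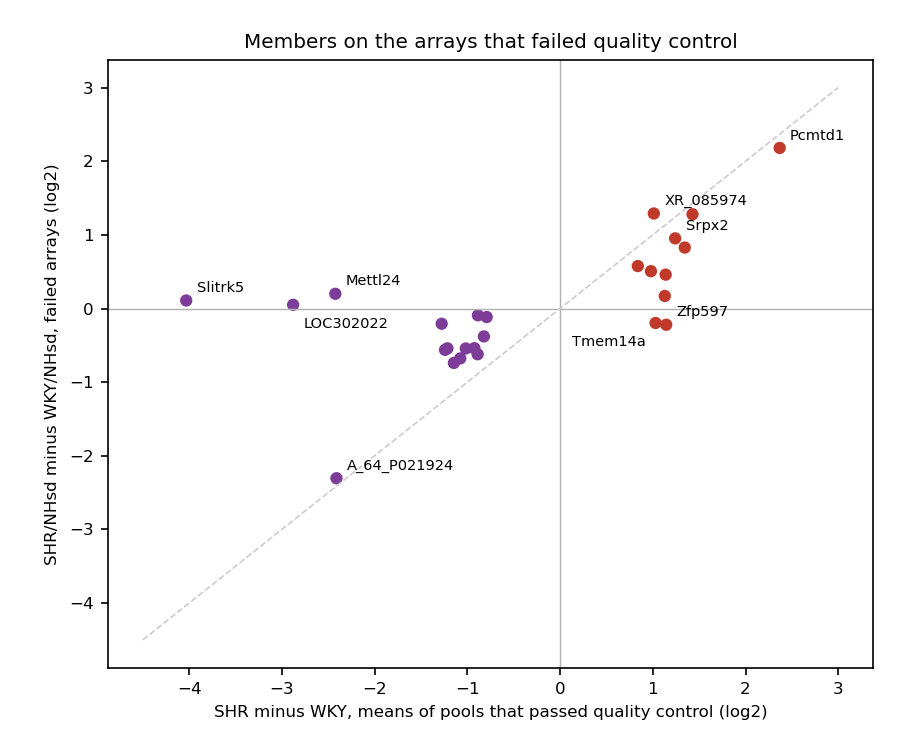
The difference between the array of SHR/NHsd and that of WKY/NHsd at 5 months, both failing quality control (vertical axis, log2), is plotted against SHR minus WKY over the pools that passed (horizontal axis, log2) for each member. Red points are members higher in SHR, purple points members lower in SHR, and the dashed line marks equal values. Pcmtd1 and A_64_P021924 lie near the line, while Slitrk5, LOC302022 and Mettl24 lie at 0.11, 0.05 and 0.20 on the vertical axis.

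A second probe for a member's gene was present for 5 genes besides Tlr3. Of these 5, 4 had the sign of the member, but none separated the pools. For Tars2, Pnkd and Alkbh4 the difference was under 0.105 in size, the median over all probes, so its sign says little. The exception in sign was Pcmtd1. Its second probe, A_64_P077940, carries the same transcript accession and was lower in SHR by 0.37 on average, at 0.23 ± 0.29 in SHR and 0.60 ± 0.18 in WKY (SD, n = 5 each), with overlapping pools. Both Pcmtd1 probes were well above background on all 14 arrays. The pair of probes thus gave 5.16-fold more and slightly less signal in SHR for what the annotation treats as 1 transcript.

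Reep1 came closest to a second separation. Its other probe, A_64_P157400, stood at -0.21 ± 0.12 in SHR and 0.26 ± 0.24 in WKY, a difference of -0.47 against -1.24 on the member probe, and its pools touched. The second probe of Tars2 differed by -0.05 against -0.89 on the member, and that of Alkbh4 by -0.01 against -0.79. For these genes the strain difference was seen by 1 probe of the pair. Mean test signals of the second and the member probe were 262 and 2465 for Tars2, 50.4 and 117 for Alkbh4 and 78.6 and 734 for Reep1. They were 135 and 662 for Pcmtd1 and, the other way round, 3197 and 740 for Pnkd. The offset added to the signals draws ratios of dim probes toward 0, and its part here was not tested. The second probe of Pnkd differed by -0.09 against -0.82, and it is annotated to a different transcript of the gene. No file used here gives the letters of the probes, so the match of each to the transcripts of either strain was not tested.

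**Figure D3:**
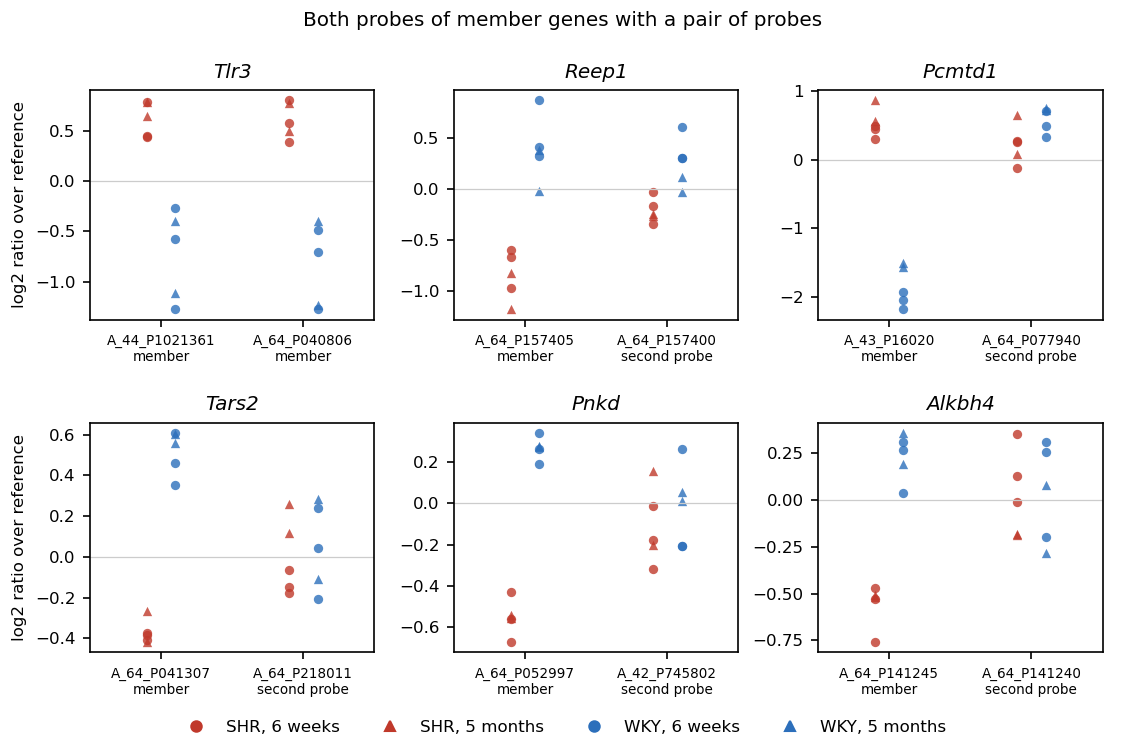
Log2 ratios over the reference (vertical axis, own scale for each gene) of all pools are shown for both probes of each member gene that has a pair of probes, with SHR red, WKY blue, circles for 6 weeks and triangles for 5 months. The strains stay apart on both probes of Tlr3, touch on the second probe of Reep1 and overlap on the second probes of Pcmtd1, Tars2, Pnkd and Alkbh4.

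No member passed the test for a change with age. Changes within a strain from 6 weeks to 5 months and the difference of these changes between strains were not used to choose probes. The choice still limited them, since every pool of both ages had to lie on the side of its strain. A member therefore differed in the same direction at both ages, so the interaction could show only a change in size. In limma's moderated test with Benjamini-Hochberg adjustment over all probes, 0 of 26 members passed an adjusted p of 0.05 in WKY and 0 in SHR, where 0.181% and 1.03% of all probes did. The smallest adjusted p was 0.300 in WKY and 0.182 in SHR, and 1 and 4 of the 26 members had an unadjusted p under 0.05 (3.85% and 15.4%), against 6.5% and 9.54% of all probes. The median size of the change was 0.12 in WKY and 0.11 in SHR over the members and 0.14 and 0.13 over all probes, so a count of 0 does not set the members apart from other probes. No member and 0% of all probes passed for the strain by age interaction, with 2 members and 1253 of all probes (4.13%) at an unadjusted p under 0.05. A change that misses the threshold is not shown to be absent, since groups held 2 or 3 pools.

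Among members, Pcmtd1 moved most in WKY, from 6 weeks to 5 months by 0.51 ± 0.15 (SE), and by 0.30 ± 0.13 in SHR. Srpx2 moved by 0.82 ± 0.25 in SHR and by -0.29 ± 0.29 in WKY, a difference of 1.11 ± 0.39. The change in SHR rested on SHR/SP, which went from -0.09 to 1.51, while SHR/NCrL went from 0.01 to 0.23. Without SHR/NCrL at 5 months, Srpx2 passed the test in SHR with a change of 1.46 ± 0.17 and a limma adjusted p of 0.00298, where the lone remaining pool at that age is assumed to vary like the other groups. Mettl24 moved by -0.81 ± 0.31 in SHR and by 0.32 ± 0.35 in WKY. Among passing pools SHR/NHsd, the highest of SHR for Mettl24, is present at 6 weeks only.

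**Figure D4:**
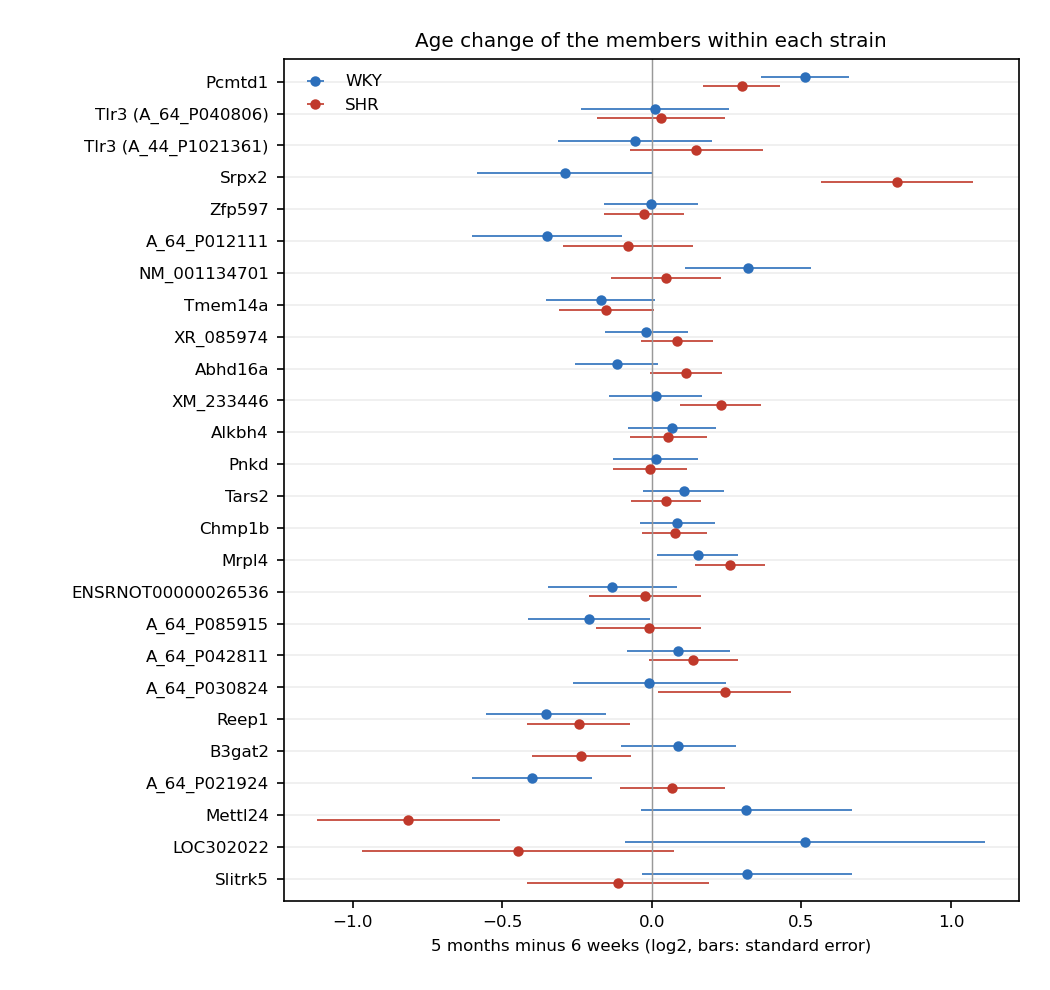
The difference between 5 months and 6 weeks (horizontal axis, log2, with its standard error from the fit) is plotted for each member in WKY (blue) and SHR (red). Values run from -0.40 to 0.51 in WKY and from -0.81 to 0.82 in SHR, and none passed the test over all probes.

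The size of the strain difference at each age is given by the fit as a description. Slitrk5 differed by -3.83 ± 0.30 (SE) at 6 weeks and -4.27 ± 0.36 at 5 months, Pcmtd1 by 2.45 ± 0.13 and 2.24 ± 0.15, and the brighter Tlr3 probe by 1.43 ± 0.21 and 1.45 ± 0.25. Srpx2 differed by 0.80 ± 0.25 and 1.91 ± 0.30, and Mettl24 by -1.93 ± 0.30 and -3.06 ± 0.36. Their interaction estimates, 1.11 and -1.13, were the largest in size among the members.

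Within a strain, sublines that were measured at both ages can be set against each other. SHR/NCrL and SHR/SP did not overlap over both ages for 8 of 26 members, against 26.8% of all probes, and none was apart by 0.5 or more, against 0.293%. WKY/NCrL and WKY/NTac did not overlap for 14 of 26 members, against 32% of all probes. Of these, 3 were apart by 0.5 or more, against 0.925%, namely both Tlr3 probes (lower in WKY/NCrL) and LOC302022 (higher in WKY/NCrL by 1.40 on average). The SD was larger among WKY than among SHR pools for 18 of 26 members and for 62.7% of all probes, and the median SD over the members was 0.24 in WKY and 0.15 in SHR.

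The choice of probes was repeated on 9 pools, and the tenth pool was then placed. For 9 of the 10 pools, between 93.5% and 100% of the probes found without a pool also put that pool beyond the other strain. The 26 members were among the probes found each time and placed the pool there by construction. Much of each share was therefore fixed by the choice of probes. The NHsd pools at 6 weeks were the only passing pools of their sublines, and SHR/NHsd gave 97.4%. The exception to the range was WKY/NHsd at 6 weeks. Without it 53 probes met the margin, and for 40 of them (75.5%), the 26 members included, this pool lay beyond all SHR pools. Over all probes, taking the side of the mean difference, between 20.2% and 31.0% placed a left-out pool beyond the other strain. For WKY/NHsd 31.0% did so. Because of the members in them, the shares among the probes found cannot be weighed against these.

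Gene order was taken from the RefSeq table for the 15 member genes that are protein-coding and placed in it. They lay on 12 chromosomes, with 3 on chromosome 9 (Tmem14a, B3gat2 and Pnkd), 2 on chromosome 20 (Abhd16a and Mettl24) and 1 on each of the others. No pair lay within 5 genes of each other. The closest, Tmem14a and B3gat2, were 9 protein-coding genes apart and went in opposite directions. Abhd16a lay 20 protein-coding genes from RT1-CE3 and 52 from RT1-Bb, histocompatibility genes that met the margin and were left out by name.

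Neighbours of the members mostly did not follow them. Of the 30 measured genes next to a member on either side, 2 kept the strains apart, and the largest difference among the 30 was 0.52. Tspan6, a tetraspanin next to Srpx2, was higher in SHR like Srpx2, at -0.04 ± 0.26 against -0.56 ± 0.17. Tmbim1, next to Pnkd, was higher in SHR by 0.33 where Pnkd was lower. Of the 10 measured genes on each side, 7 of 300 separated the strains by any margin (2.33%), against 2.64% of all measured genes. These 7 include the members Tmem14a and B3gat2, which were chosen for separating the strains and count in each other's window. Their windows also share genes, so the 300 hold some genes more than once. Besides Tspan6, Tmbim1, Tmem14a and B3gat2, Rb1cc1 and Tcea1 near Pcmtd1 were lower in SHR by 0.18 and 0.23, the reverse of Pcmtd1, and Cdc37 near Mrpl4 was higher by 0.16. The median size of the difference was 0.11 over the neighbours and 0.10 over all measured genes.

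**Figure D5:**
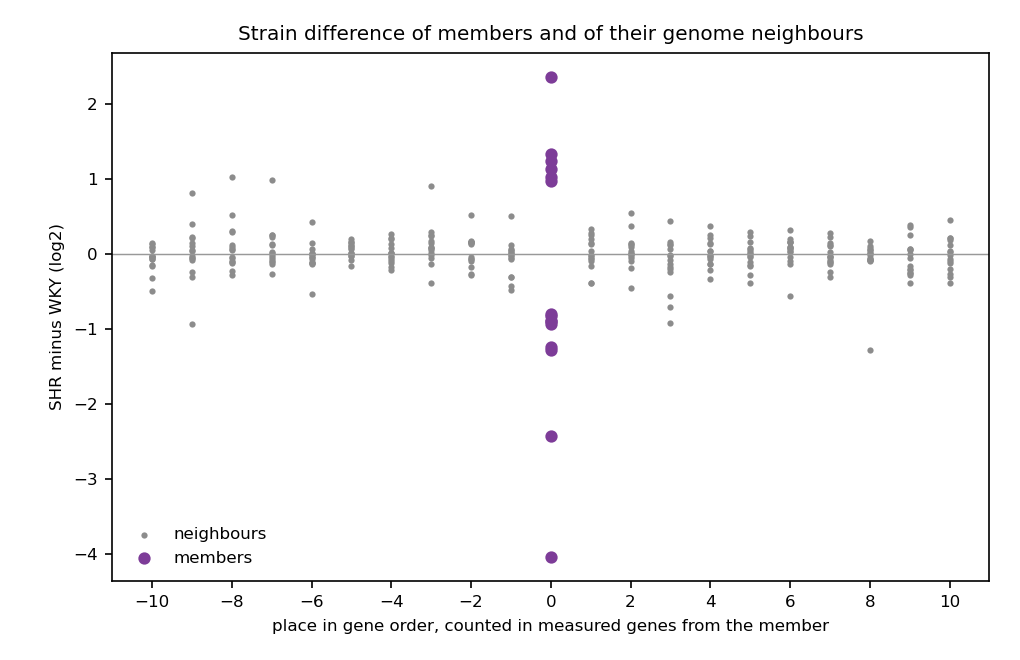
SHR minus WKY (vertical axis, log2, means of pools) is plotted for the 15 placed member genes at 0 (purple) and for the 10 measured genes on each side (grey), by place in gene order. Points away from 0 on the horizontal axis lie mostly near no difference, and those beyond a difference of 1 in size are Tmem14a and B3gat2, seen from each other's place.

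The base sequence before the start of 4 genes is shown for the member genes with the largest strain difference whose window held no other annotated gene, 3 lower and 1 higher in SHR. It is the reference assembly GRCr8 from RefSeq, not the sequence of SHR or WKY, read 5′ to 3′ over the 250 bases before the annotated start. The windows are chr15:95265394-95265643 for Slitrk5, chr20:45724805-45725054 for Mettl24, chr9:33663232-33663481 for B3gat2 and chrX:101399873-101400122 for Srpx2, all on the plus strand. Capitals mark any match, on either strand, to TATAAA (the TATA box), CCAAT (the CCAAT box), GGGCGG (a site of the Sp family) or GAAANNGAA (the core of the interferon response element).
Slitrk5: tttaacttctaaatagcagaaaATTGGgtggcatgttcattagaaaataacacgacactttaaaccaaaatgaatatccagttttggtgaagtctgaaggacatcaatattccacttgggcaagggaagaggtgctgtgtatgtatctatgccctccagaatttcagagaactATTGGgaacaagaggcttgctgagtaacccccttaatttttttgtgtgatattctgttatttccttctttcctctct
Mettl24: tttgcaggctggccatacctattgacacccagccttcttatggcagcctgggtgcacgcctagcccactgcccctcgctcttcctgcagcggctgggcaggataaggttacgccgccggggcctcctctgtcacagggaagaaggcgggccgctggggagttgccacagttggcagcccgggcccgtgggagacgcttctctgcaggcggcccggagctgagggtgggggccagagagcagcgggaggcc
B3gat2: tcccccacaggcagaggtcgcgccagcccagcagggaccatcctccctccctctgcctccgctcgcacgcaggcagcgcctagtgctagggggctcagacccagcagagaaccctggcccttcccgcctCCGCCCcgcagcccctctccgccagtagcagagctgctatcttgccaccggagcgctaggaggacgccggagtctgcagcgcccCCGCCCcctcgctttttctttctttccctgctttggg
Srpx2: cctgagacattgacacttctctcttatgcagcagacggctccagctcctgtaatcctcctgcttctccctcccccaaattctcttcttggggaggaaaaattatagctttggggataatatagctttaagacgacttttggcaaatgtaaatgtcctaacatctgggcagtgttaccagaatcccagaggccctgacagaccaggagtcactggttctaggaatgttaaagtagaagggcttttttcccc
Of the 16 member genes, 12 had a promoter in the table. CCAAT was found in 5 of the 12 and in 34.3% of all promoters, and GGGCGG in 5 of the 12 and in 32.4%. TATAAA and GAAANNGAA were found in none of the 12, Tlr3 included, and in 13.1% and 7.99% of all promoters. A match or its lack describes these letters in these windows and says nothing of the factors that bind there.

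Gene lists, some built around a member and some around other processes of the vessel, were read with 1 probe per gene. At an adjusted p of 0.05, limma called 0.286% of all probes between strains at 6 weeks and 0.379% at 5 months, and 7.96% and 7.90% had an unadjusted p under 0.05. Of 16 genes of double-stranded RNA sensing and interferon response other than Tlr3, such as Mavs, Ifih1, Mx1 and Isg15, 0 were called at either age, with 1 at an unadjusted p under 0.05 at each. Ifih1 differed by 0.35 ± 0.15 (SE) at 6 weeks and Rsad2 by -1.28 ± 0.34 at 5 months. The median difference of these 16 was 0.04 at 6 weeks and -0.08 at 5 months, against -0.01 and 0.01 over all probes.

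Of 7 other SLITRK family members and receptor phosphatases, 0 were called at either age and 0 had an unadjusted p under 0.05, and Slitrk6, the measured gene next to Slitrk5, differed by 0.02 between strain means. Slitrk2 and Slitrk4 were well above background on none of the 14 arrays and Slitrk3 on 2 SHR arrays, so 3 of these 7 were hardly measured. Of the 2 relatives of Pcmtd1, Pcmt1 and Pcmtd2, 0 were called and 0 had an unadjusted p under 0.05. Of 6 basement membrane genes 0 were called, with 1 at an unadjusted p under 0.05 at 6 weeks and 0 at 5 months. Among the lists that hold no member, Tor1b was called of 7 torsins and cofactors at both ages (1.01 ± 0.20 and 1.58 ± 0.24 SE, higher in SHR) and Trim55 of 3 muscle RING finger genes at both ages (-1.87 ± 0.17 and -1.61 ± 0.20). Fkbp5 was called of 12 glucocorticoid response genes at 6 weeks (1.77 ± 0.31), where 5 of the 12 had an unadjusted p under 0.05, and 1 at 5 months. The study had already listed Tor1b, Trim55 and Fkbp5 among its most changed genes between strains in these same data. Their calls were thus known beforehand and are no new result of the lists. Ptgs1 was called of 21 vascular tone genes at 6 weeks (1.20 ± 0.18), where 7 of the 21 had an unadjusted p under 0.05, and 6 at 5 months. Of 12 glutathione transferases and 8 candidate genes from genetic mapping 0 were called at either age, with 3 and 3 at an unadjusted p under 0.05 at 6 weeks and 1 and 3 at 5 months. Shares such as 3 of 8 and 7 of 21 lie above the 7.96% of all probes, but no list was tested as a whole. Tor1b and Trim55 separated the strains by 0.29 and 0.41. So did the mapping candidates Endog and Stim1, both lower in SHR, by 0.28 and 0.17, and Ptgs1 by 0.06. All of these were short of the margin of 0.5.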

How the data were processed

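RNA from pooled mesenteric arteries was hybridised on Agilent rat arrays with 2 colours. The authors deposited log2 ratios of test over reference made, per their methods, with normexp (offset 15), loess and averaging of replicate probes, using limma in R 3.0.0 per the labels' processing notes. Spot intensity values and other columns, such as flags for signal above background, are in the deposited scanner files. Ratios rebuilt from these differed from the deposited ones by at most 0.0565, which settles scale and direction. The deposited log2 values of 30367 probes were the main values, with repeat arrays of a pool averaged.

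Members and gene lists were chosen with earlier results of these data known. Age, interaction and list genes were tested with limma 3.58.1 (R 4.3.3) on 14 arrays in 4 groups, with duplicateCorrelation for repeat arrays (0.444), Benjamini-Hochberg adjustment over all probes and a threshold of 0.05. The fit was tested on simulated data. P-values rest on the spread between pools and, for the SHR pools with a second array, also between repeat arrays. The number of pools limits the precision. With repeat arrays averaged, 7 probes passed for age in SHR and 15 in WKY, where the main fit passed 313 and 55.

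A probe counted as well above background where 0.5 or more of its spots on that array did. Bounds use test-channel log2 values after loess and Aquantile, open to dye bias without swaps. Accessions matched RefSeq (GRCr8) for 18355 probes (60.4%), and LOC302022 and 1 left-out RT1 gene carry the study's names. The array's annotation predates this assembly, so no gene coordinates are given beyond the promoter windows. Named were members with a symbol, their second probes, probes next to the margin, close pairs and members of the lists. A list gene was read from its probe with the highest test signal. Alternatives were scanner rebuilds (offset 15 or 50, median centring, processed signals), no dim probes, 1 array per pool, failed arrays included, slide, replicate number or subline as a block, repeat arrays averaged, eBayes with trend and robust, and each pool left out. Strain differences of single members under these were added after seeing the data.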

Additional observations from a re-analysis of the deposited data

Results flagged for a closer look

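Within a strain, 1 pool stood far from the other 4 for 5 of the 52 sets of 5 pools, where unselected sets would give about 1 in 20, or 2.6. These sets were selected, since a pool straying toward the other strain would drop its probe. The counts therefore cannot be weighed against each other. For Srpx2, SHR/SP at 5 months read 1.51, with the next SHR pool at 0.23, and WKY/NCrL at 5 months read -1.28, with the next WKY pool at -0.82. For Alkbh4, SHR/NCrL at 6 weeks read -0.76, with the next SHR pool at -0.53. For Chmp1b, SHR/NHsd at 6 weeks read -0.63, with the next SHR pool at -0.47. For A_64_P085915, WKY/NTac at 5 months read 0.17, with the next WKY pool at 0.44. Of these, WKY/NTac for A_64_P085915 was the only one that lay toward the other strain, a direction that the choice of probes limits.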

How the results depend on the processing

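The number of members, 11 higher and 15 lower in SHR, moved with the signal processing. The scanner rebuild with offset 15 found the same 26 probes. With offset 50 it was 7 higher (all of them members), and with the processed signals of Feature Extraction 22 higher and 32 lower, of which 8 and 15 were members. With the failed arrays included it was 3 higher and 2 lower. Of the 26 members, 16 then still kept the strains apart by any margin. The pools of Slitrk5, LOC302022 and Mettl24 were among those that overlapped. Leaving out each pool in turn gave 12 to 19 higher and 15 to 37 lower, with all members kept by construction. The counts went to 17 higher without SHR/NHsd at 6 weeks, 19 higher without WKY/NTac at 5 months and 37 lower without WKY/NHsd at 6 weeks. The cause was not tested. The other alternatives stayed within 1.5 times. No strain difference of a member changed sign in any of them, but sizes moved by over 1.5 times in fold for 10 members with the processed signals, for 3 with offset 50 and for 1 with the failed arrays. With the processed signals the log2 difference was -5.70 for Slitrk5, -4.48 for A_64_P021924, -4.26 for Mettl24, -3.50 for LOC302022, -2.94 for ENSRNOT00000026536, -2.93 for B3gat2, -2.11 for A_64_P030824, 1.64 for XM_233446, 2.09 for Zfp597 and 3.57 for A_64_P012111. With offset 50 it was -3.23 for Slitrk5, -1.69 for Mettl24 and -1.68 for A_64_P021924, and with the failed arrays -3.34 for Slitrk5.

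No member passed for age in WKY or for the interaction under any alternative (0 in each), and in SHR the count was 0 except without SHR/NCrL at 5 months, with a range of 0 to 1 over pools left out. Same-numbered pools correlated at -0.14 to 0.39 in their deviations, so the numbers do not pair pools, and with the replicate block 0 members passed in all 3 age contrasts. Second probes with the sign of the member numbered 3 to 4 of 5 over pools left out and 3 with median centring. The offset draws log2 ratios of dim probes toward 0, so a low signal over background limits the size given for them.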
